A study of Mus musculus with 24 samples.

Results

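Cdr1as, Cdr1, Cdr1os and Oip5os1 are 4 of the 14769 gene symbols listed over the 4 expression tables of this study of mouse stroke. They were taken by symbol, with earlier results of these data known. Cdr1as is the circular RNA ciRS-7, and Cdr1 is the gene on the opposite strand of the same exon. Cdr1os is a long noncoding RNA of the same locus, and only some of its annotated transcripts overlap that exon. Oip5os1 is the long noncoding RNA Cyrano, from another chromosome. All 4 were listed in the 3 tables that hold wild-type libraries, and Cdr1os and Oip5os1 alone, 2 of 4, in the table of the knockout libraries.

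Total RNA depleted of ribosomal RNA was sequenced from cortex of male mice aged 3 to 4 months. The middle cerebral artery had been occluded for 1 h in every animal, and reperfusion lasted 1 day. Animals were wild type (WT) or ciRS-7 knockout (KO), and each gave a cortex sample marked CL and another marked PI, marks that the labels leave unexpanded. Each mark and genotype (CL WT and CL KO, PI WT and PI KO) had 6 biological replicates, which gave 24 libraries. The strain entry of all animals, WT included, was C57BL/6N-Cdr1asem1Nikr, which names the edited Cdr1as allele, and the extent of the edit is not given in the sources used here. There was no group without occlusion. The series set out to compare the transcriptomes of both genotypes at this time.

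Circular RNAs form when a splice donor joins an upstream acceptor, which leaves a closed loop without free ends. Cdr1as is known as an abundant circular RNA of neurons that carries many sites for the microRNA miR-7, and a nearly complementary site for miR-671 through which Ago2 can cut it. Cyrano holds a site of extended pairing to miR-7 and directs the decay of that microRNA, so the 2 RNAs and the 2 microRNAs are described as a network in mammalian brain. MicroRNAs were not measured in these libraries.

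The mature microRNAs of this network are shown from RefSeq (GRCm38.p6), with the seed, bases 2 to 8, in capitals. The miR-7a-5p entry lies at chr7:78888295-78888317, that of miR-7b-5p at chr17:56243017-56243040 and that of miR-671-5p at chr5:24592132-24592154, all on the plus strand.
miR-7a-5p: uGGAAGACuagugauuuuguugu
miR-7b-5p: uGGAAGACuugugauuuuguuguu
miR-671-5p: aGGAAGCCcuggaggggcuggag
Both miR-7 microRNAs share 1 seed, whose match in a target is GTCTTCC.

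The exon taken for Cdr1as is the GENCODE M21 exon of Cdr1os that holds Cdr1, at X:61183248-61186174 on the plus strand of GRCm38 (2927 bases). It held 123 matches to the seed, or 42.0 per kilobase, searched on the strand of the transcript. Over all GENCODE M21 transcripts 13.8% held a match, at 0.0969 per kilobase, and the most in any transcript of a gene other than Cdr1os was 11. The first, middle and last sites of the exon show how the matches differ outside the seed. Capitals mark the seed match.
Cdr1as site, first (chrX:61183258-61183280): ggtgccagtaccaagGTCTTCCa
Cdr1as site, middle (chrX:61184572-61184594): ttcccagaaatccaaGTCTTCCc
Cdr1as site, last (chrX:61186083-61186105): ttccagcatctttatGTCTTCCa
Within such windows of 23 bases, the sites could pair with 8 to 16 bases of miR-7a-5p without gaps (median 13). An A opposite base 1 of the microRNA followed 34 of the 123 matches, and the windows had 70 distinct sequences.

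The nearly complementary site for miR-671-5p lies close to the 3′ end of the same exon and differs from full pairing at 4 bases. Capitals mark paired bases.
Cdr1as site for miR-671-5p (chrX:61186029-61186051): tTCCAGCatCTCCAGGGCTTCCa

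The longest Oip5os1 transcript (8300 bases) held 2 matches to the miR-7 seed. Oip5os1 lies at 2:119594297-119607502 on the plus strand, where GENCODE M21 names it 1700020I14Rik and gives 2 transcripts. Capitals mark the seed match with the base after it, and any paired run of 8 or more bases at the other end.
Oip5os1, first match (chr2:119599946-119599971): tcaggttttttttttaatGTCTTCCA
Oip5os1, second match (chr2:119602136-119602161): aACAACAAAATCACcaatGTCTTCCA
Upstream of the second match lies a run of 13 bases that can pair with the 3′ part of miR-7a-5p, and the first match has no such run. This contrast is why both are shown.

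Cdr1 has 1 exon of 1554 bases on the minus strand, X:61184005-61185558, and lies wholly inside the circular exon. The 1554 shared bases carried 79 of the 123 matches when read on the plus strand, and the Cdr1 transcript itself carried 0. Cdr1os (C230004F18Rik in GENCODE M21) spans X:61116378-61292484 on the plus strand with 11 transcripts, of which 3 overlap the circular exon. Its longest transcript off that exon (2536 bases) carried 0 matches. RefSeq ends Cdr1os at base 61139460, before the circular exon, and lists Cdr1as as a synonym of Cdr1os. How reads in the shared bases were assigned to Cdr1as, Cdr1 and Cdr1os is not given in the sources used here, nor is the use of strand. Separate values are listed for Cdr1 and its antisense partner Cdr1as, but how far each holds reads of the other cannot be told here. With 1 value per gene, circular and linear RNA from this exon cannot be told apart either.

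**Figure D1:**
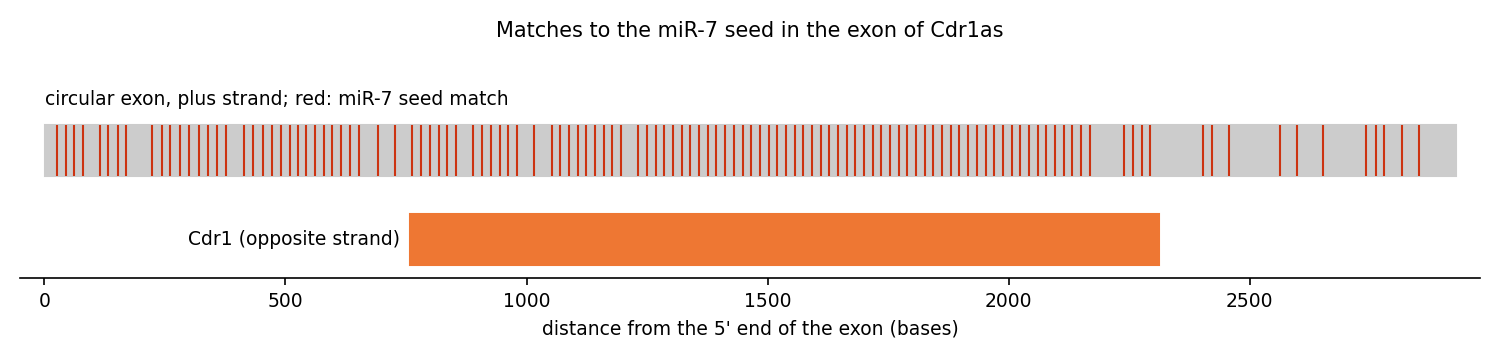
Position of each match to the miR-7 seed (red lines) along the exon of Cdr1as (grey, 2927 bases), by distance from its 5′ end, with the span of Cdr1 on the opposite strand in orange. The 123 matches run through most of the exon, and 79 of them lie over Cdr1.

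Expression was deposited as log2 CPM, the logarithm of a gene's reads after scaling for library size. Within each gene and group of 6, the 2 lowest and the 2 highest values had been drawn in to the group's quartiles, so the extremes of a group cannot be recovered and the visible spread is too small. Groups whose full values overlap can therefore appear apart. The share of all genes without overlap was not counted, so a lack of overlap is given as description only. Levels are given as the lowest, median and highest deposited value, then as the trimmed mean of the 4 recoverable values ± its SE (n = 6). Depth read from the steps between low values was 3.76 to 10.5 megareads per library (median 6.92), the lowest in CL KO replicate 6. Of 10 neuron markers all 10 were listed in each table, and of 6 neutrophil and monocyte markers 0 were listed outside the table of PI KO and PI WT, where 2 were.

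Cdr1as was the most abundant of the 4 transcripts in WT cortex and among the most abundant of all genes. In CL WT it lay between 11.78 and 11.93 log2 CPM (median 11.88), with a trimmed mean of 11.86 ± 0.05, or 3719.9 CPM. This was rank 18 of 14489 genes. The estimated reads behind it were 22725 to 28916 per library. In PI WT it lay between 11.32 and 11.49 (median 11.37), with a trimmed mean of 11.39 ± 0.06, or 2686 CPM, rank 19. The PI WT values all lay under the CL WT values. Per kilobase of exon, Cdr1as reached 1271 CPM in CL WT, rank 23 of 14330 genes with a known length, and 918 CPM in PI WT, rank 27.

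Oip5os1 came next. Its deposited values ran from 10.02 to 10.09 log2 CPM in CL WT (median 10.06; trimmed mean 10.06 ± 0.03, or 1064 CPM, rank 68). In PI WT they ran from 9.96 to 10.09 (median 10.02; trimmed mean 10.02 ± 0.05, or 1039.7 CPM, rank 61). The WT groups overlapped. Per kilobase, Oip5os1 stood at 128 CPM in CL WT and 125 CPM in PI WT. Of 13 other long noncoding RNAs listed for comparison, 12 were measured. Per kilobase in CL WT, Malat1, a nuclear RNA, stood above Cdr1as at 2409 CPM. Snhg11 at 207 CPM and Meg3, a maternally expressed imprinted RNA, at 135 CPM stood between Cdr1as and Oip5os1. The other measured RNAs of that list stood below Oip5os1, from Rian at 56.0 CPM to Sox2ot at 1.15 CPM.

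Cdr1os and Cdr1 were far less abundant. Cdr1os lay between 6.78 and 6.83 log2 CPM in CL WT (median 6.79; trimmed mean 6.80 ± 0.02, or 111 CPM, rank 1876) and between 6.64 and 6.82 in PI WT (median 6.78; 6.75 ± 0.07, or 107 CPM, rank 1898). These 2 groups overlapped. Cdr1 lay between 5.07 and 5.32 in CL WT (median 5.18; 5.19 ± 0.09, or 36.4 CPM, rank 4910), which came to 199 to 328 reads per library. In PI WT it lay between 4.28 and 4.47 (median 4.44; 4.40 ± 0.08, or 21.04 CPM, rank 6854), or 120 to 220 reads, and every value was under those of CL WT. Per kilobase the order of Cdr1os and Cdr1 turned when all Cdr1os exons were counted, but not over its shortest transcript. Cdr1 stood at 23.5 CPM per kilobase in CL WT, whereas Cdr1os stood at 4.63 over all its exons (24030 bases). The Cdr1os figure depended on which exons were counted, since it was 17.8 over the exons that do not touch the circular exon and 234 over the shortest transcript (475 bases). Its level per length is therefore known only within that range.

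**Figure D2:**
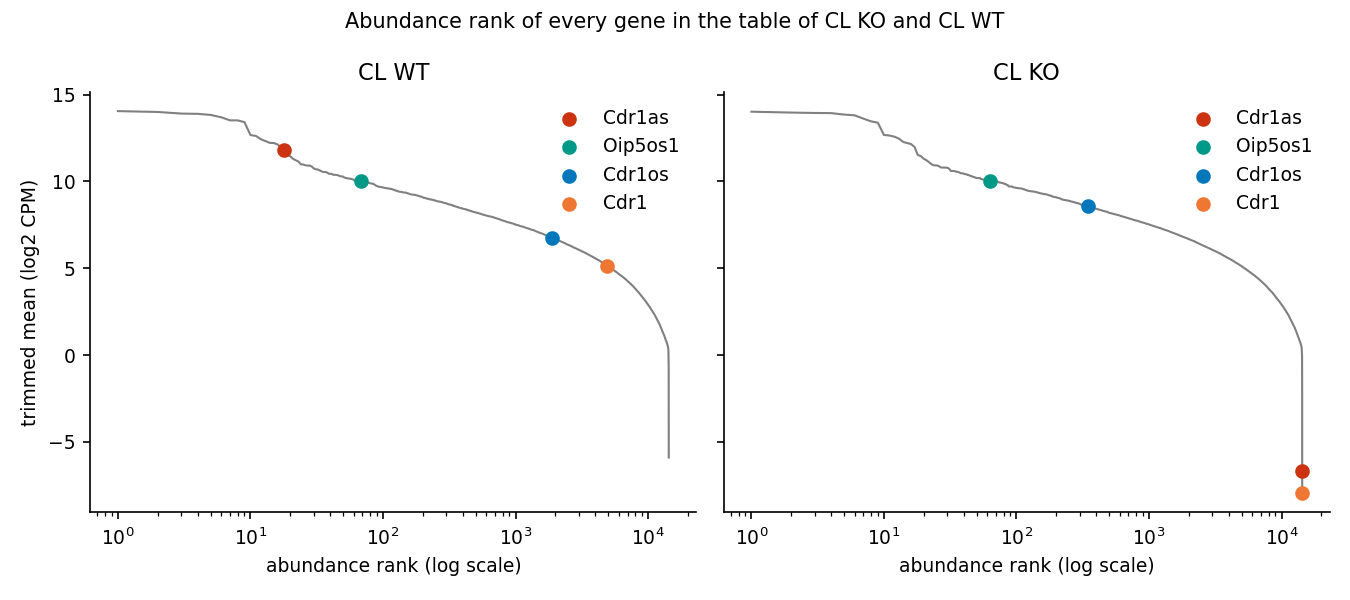
Trimmed mean log2 CPM of every gene against its abundance rank (log axis) in CL WT and CL KO, from the table that holds both, with the 4 transcripts as coloured points. Cdr1as falls from rank 18 in CL WT to rank 14322 of 14323 in CL KO, Cdr1os moves from rank 1875 to rank 348, and Oip5os1 stays near the top at ranks 68 and 63.

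Ratios are given as differences of a group's log2 trimmed means, with the range of the ratios within libraries in parentheses. Scaling of a whole library cancels in a ratio, while the drawing in of values per gene does not. Between the tables that hold the same libraries, ratios of trimmed means differed by at most 0.0032 on the log2 scale, ratios within a library by up to 0.0125, and levels by up to 0.03. In CL WT there were 102 reads of Cdr1as for 1 of Cdr1 (88.2 to 116 over libraries), 33.4 for 1 of Cdr1os (32.0 to 34.9) and 3.50 for 1 of Oip5os1 (3.23 to 3.73). Cdr1 thus stood at 0.980% of Cdr1as. In PI WT the ratio of Cdr1as to Cdr1 was 128 (117 to 135), higher by 0.32 on the log2 scale with no overlap between groups. Its ratio to Cdr1os was 25.03 (22.7 to 26.03) and to Oip5os1 2.58 (2.43 to 2.88). These were lower than in CL WT, with log2 differences of -0.42 and -0.44, again with no overlap. The ratio of Cdr1os to Oip5os1 overlapped between CL WT, at 0.105, and PI WT, at 0.103. These ratios rest on the drawn-in values and are given without a test.

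**Figure D3:**
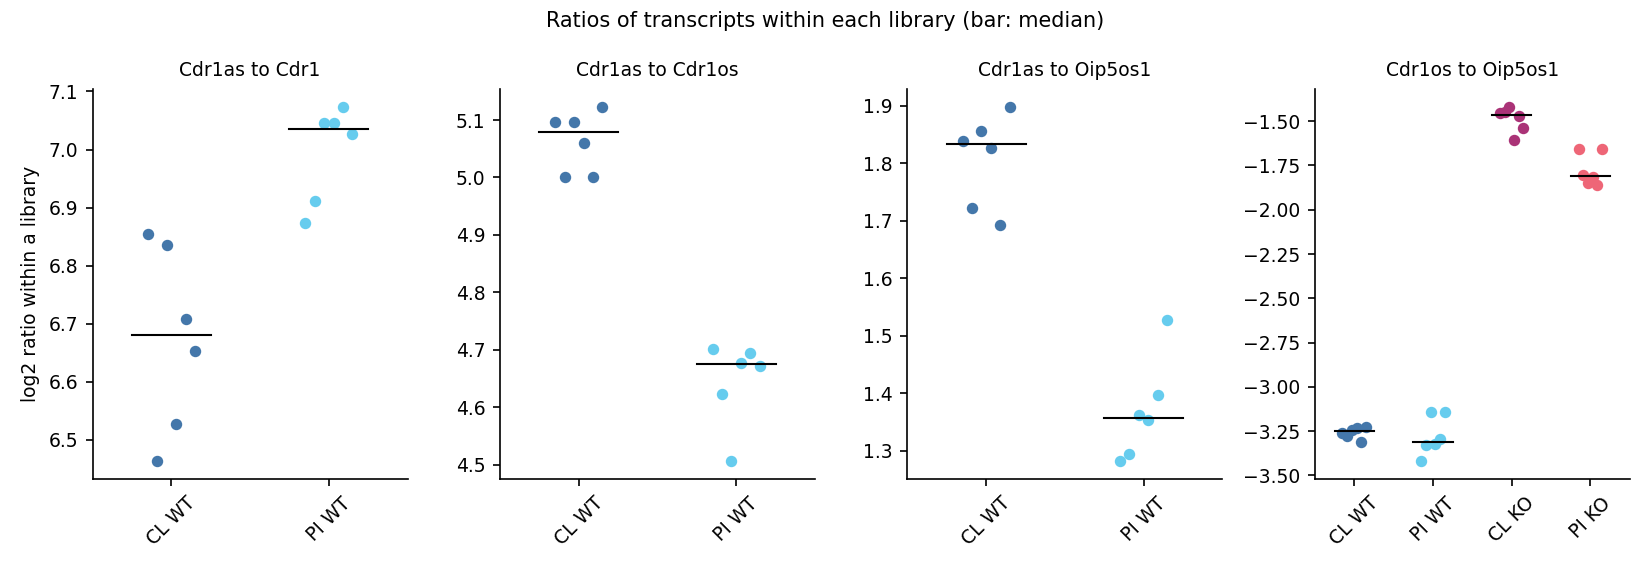
Log2 ratio of transcript levels within each library (points, 6 per group) with the group median as a bar, in the table of PI WT and CL WT and, for Cdr1os to Oip5os1, also in that of PI KO and CL KO. Cdr1as is lower in PI WT than in CL WT against Cdr1os and Oip5os1 and higher against Cdr1, and Cdr1os to Oip5os1 is higher in both KO groups than in both WT groups.

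In WT animals, the values listed for Cdr1as and Cdr1 were lower in PI than in CL, while the 2 long noncoding RNAs did not pass the test. Cdr1as fell by 27.8% (95% interval of the change -35.3% to -19.4%), or -0.47 on the log2 scale (SE 0.07, adjusted p = 0.00143). Cdr1 fell by 42.3%, or -0.79 (SE 0.10, adjusted p = 0.000448, 95% interval -1.01 to -0.57). Both were lower in PI in 6 of 6 animals, by -0.60 to -0.29 for Cdr1as and by -1.04 to -0.60 for Cdr1 in deposited log2 values. Such counts rest on the drawn-in values, from which the extremes of each group are missing, and add nothing to the lack of overlap. That lack is itself made easier by the drawing in, and was also seen for Oip5os1 in KO at an adjusted p of 0.264 in the trimmed-mean test. The counts were 2 of 4 transcripts called lower and 0 higher, where 10.6% of all 14489 genes were called, 5.4% lower and 5.2% higher. Among all genes, the fall of Cdr1 was the 118th largest and that of Cdr1as the 452nd largest.

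For Cdr1os the difference between PI WT and CL WT was -0.05 (SE 0.07, adjusted p = 0.708), with a 95% interval from -0.20 to 0.09. For Oip5os1 it was -0.03 (SE 0.06, adjusted p = 0.785), with an interval from -0.15 to 0.09. Each was lower in PI in 4 of 6 animals. In percent, the lower ends of these intervals were -12.8% for Cdr1os and -10.2% for Oip5os1, so neither reached the change measured in Cdr1as. The median change over all genes was 0.01.

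Some neuronal genes moved in the same comparison, in which 5.4% of all genes were called lower and 5.2% higher. Of 10 neuron markers, 4 fell and 0 rose, among them Camk2a, a kinase of excitatory synapses, by -0.44 (adjusted p = 0.000783) and Nefl, a neurofilament subunit, by -0.41 (adjusted p = 0.00291). Values above 0 were found for 3, the inhibitory neuron genes Gad2 (0.28, adjusted p = 0.0600) and Gad1 (0.11, adjusted p = 0.483) and the vesicular glutamate transporter gene Slc17a7 (0.01, adjusted p = 0.968). The median of the 10 was -0.22, and their summed level was 9497 to 10144 CPM in CL WT and 8144 to 8948 CPM in PI WT. Of 6 oligodendrocyte markers 1 fell (Cnp, -0.41, adjusted p = 0.0167), with a median of -0.37 and summed levels of 2080.2 to 2272 CPM against 1429 to 2039 CPM. Astrocyte and microglia markers moved in both directions, with 2 higher and 2 lower of 6, and 2 higher and 1 lower of 6. In these bulk samples fewer cells of a type and less RNA per cell cannot be told apart. The part of the neuronal change in the fall of Cdr1as and Cdr1 was not tested.

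The genes whose values over the 12 WT libraries most resembled each transcript were named by the root mean square difference of log2 deviations from a gene's own mean, among 9691 genes. For Cdr1as they were Tmem132d (0.0519), Cacna2d3 (0.0623), which encodes an auxiliary calcium channel subunit, Slc2a13 (0.0640), Zfp651 (0.0652) and Gria3 (0.0667), an AMPA receptor subunit, where the median gene differed by 0.254. For Cdr1 they were Itih5 (0.0660), the growth factor gene Igf2 (0.0826), Prom1 (0.0961), Camk1g (0.105) and Tmem44 (0.113), with a median of 0.412. For Cdr1os they were Cep76, Zfp617, Slc25a32, Pot1a and Trpm7 (0.0260 to 0.0364, median 0.113), and for Oip5os1 Timm8b, Sf3b1, Ola1, Mgat4c and Slc25a46 (0.0237 to 0.0266, median 0.108). The genes named for Cdr1as and Cdr1 were all lower in PI WT, and those named for Cdr1os and Oip5os1 were all uncalled. The libraries are shared by all these genes, and the measure follows the difference between CL and PI.

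In KO cortex Cdr1as and Cdr1 were not detectable at this depth in any recoverable value. The highest value of each group cannot be recovered, so the genotype label of a single library cannot be checked this way. The deposited, drawn-in value of Cdr1as was the lowest of its table in 4 of 6 CL KO and 3 of 6 PI KO libraries. The highest recoverable value in CL KO was 0.148 CPM, at most 1.56 reads. In PI KO it was 0.169 CPM, at most 1.18 reads. For Cdr1, 6 of 6 deposited values in each KO group were at that lowest value. In the same tables Cdr1as stood at 3634 CPM in CL WT and 2741 CPM in PI WT, and Cdr1 at 35.6 and 21.5 CPM. No recoverable KO value came near a WT value.

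Folds were taken against 3 reads in the shallowest library of a KO group, or 0.781 CPM for CL and 0.569 CPM for PI. In CL, the bounds were at least 4654-fold lower for Cdr1as and at least 45.6-fold lower for Cdr1. In PI, the bounds were at least 4815-fold lower for Cdr1as and at least 37.7-fold lower for Cdr1. The limit covers counting error only. Adjusted p-values were 5.58e-06 and 2.73e-07 for Cdr1as and Cdr1 in CL and 0.00237 for each in PI. These p-values do not belong to the bounds. They test log2 differences that count the lowest value of a table as a level. For Cdr1as and Cdr1 these differences were -18.49 and -13.12 in CL, and -17.71 and -14.39 in PI. The adjusted p for Cdr1as in PI was 0.189 when the prior variance had no trend, and 6.98e-17 with log2(CPM + 1).

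Cdr1os was the only one of the 4 called higher in KO. Its values in CL KO lay between 8.48 and 8.64 log2 CPM (median 8.57), against 6.74 to 6.79 in CL WT (median 6.75). It rose 3.48-fold in CL, by 1.80 on the log2 scale (SE 0.06, 95% interval 1.67 to 1.93, adjusted p = 4.94e-09). In PI KO its values lay between 8.17 and 8.28 (median 8.25), against 6.67 to 6.85 in PI WT (median 6.80). It rose 2.75-fold in PI, by 1.46 (SE 0.07, 95% interval 1.30 to 1.62, adjusted p = 1.28e-06). The lowest KO value was above the highest WT value by 1.69 in CL and 1.33 in PI.

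Few genes were called between genotypes. In CL 3 of the 4 transcripts were among the 4 genes called (0.0279% of 14323), with 1 of the 2 genes called higher (0.014%) and both of the 2 genes called lower (0.014%). In PI the 3 genes called (0.0208% of 14452) were Cdr1os, higher (0.00692%), and Cdr1as and Cdr1, lower (0.0138%). Cdr1os had the smallest p of all genes in both comparisons, and its rise was the 15th largest in CL and the 18th largest in PI. In CPM the gain of Cdr1os was 269.6 in CL and 191.6 in PI, which is 7.42% and 6.99% of the Cdr1as level in the matching WT group. The summed level of Cdr1as, Cdr1 and Cdr1os was 379 CPM in CL KO against 3825 CPM in CL WT, and 304 CPM in PI KO against 2820.1 CPM in PI WT (medians). Whether the extra Cdr1os reads came from bases inside or outside the circular exon was not tested, since the tables hold 1 value per gene.

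Oip5os1 did not pass the test in either comparison of genotypes. In CL KO its values lay between 10.02 and 10.09 (median 10.04) and in CL WT between 9.98 and 10.05 (median 10.03), a difference of 0.03 (SE 0.04, adjusted p = 0.978) with a 95% interval from -0.07 to 0.13. In PI KO they lay between 9.94 and 10.05 (median 10.03) and in PI WT between 9.98 and 10.12 (median 10.04), a difference of -0.04 (SE 0.06, adjusted p = 0.948) with an interval from -0.18 to 0.10. The groups overlapped in both. Of Cdr1os to Oip5os1, the ratio was higher in KO than in WT by 1.77 on the log2 scale in CL and by 1.50 in PI. Of 10 neuron markers, 0 were called between genotypes, where 0.0279% of all genes were in CL and 0.0208% in PI. Their summed levels in CL were 9316 to 9672 CPM in KO and 9275 to 9909 CPM in WT.

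**Figure D4:**
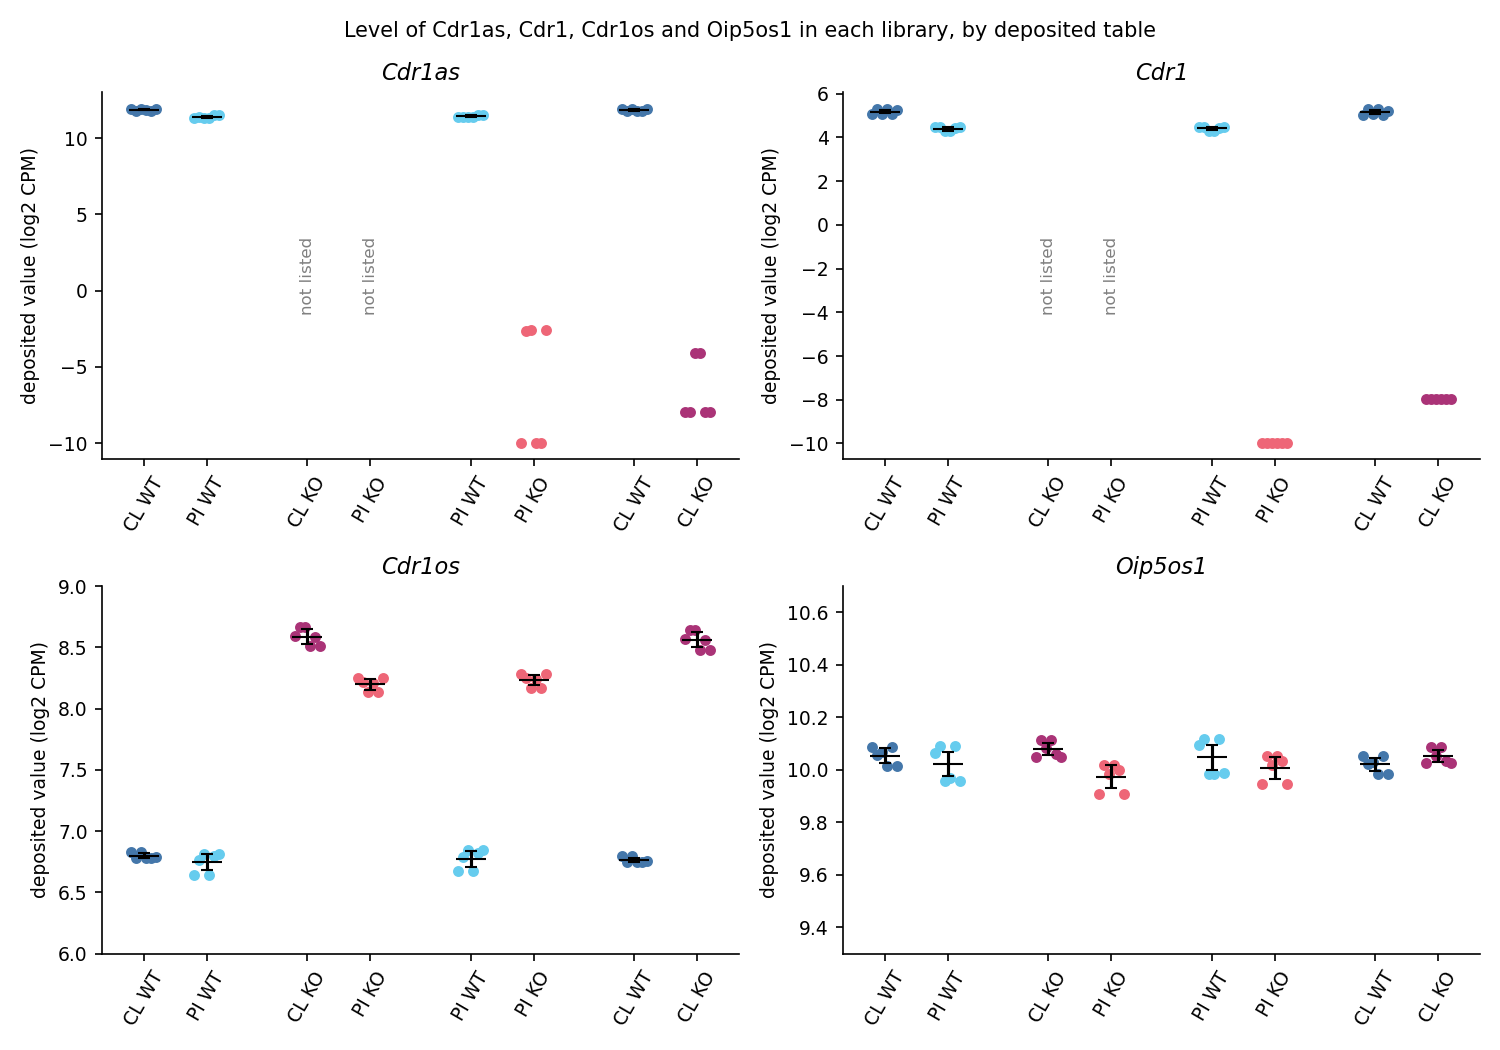
Deposited log2 CPM of each transcript in each library (points, 6 per group) in the 4 tables (pairs of neighbouring groups), with the trimmed mean and its SE in black where no library is at the lowest value of the table; vertical axes differ between panels. Cdr1 lies at the lowest value of its table in every KO library. Cdr1as lies there in 4 of 6 CL KO and 3 of 6 PI KO libraries. Cdr1os is above 8 in every KO library and under 7 in every WT library, and Oip5os1 stays between 9.91 and 10.12 in all.

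In KO animals, Cdr1os was lower in PI than in CL. Its values lay between 8.51 and 8.67 log2 CPM in CL KO (median 8.59; 8.59 ± 0.06, or 385 CPM, rank 348 of 14338) and between 8.14 and 8.25 in PI KO (median 8.21; 8.20 ± 0.04, or 294 CPM, rank 478). It fell by 23.6%, or -0.39 (SE 0.07, 95% interval -0.54 to -0.24, adjusted p = 0.00363), and its drawn-in values were lower in PI in 6 of 6 animals, by -0.53 to -0.25, and did not overlap between groups. It was 1 of the 2 listed transcripts called, where 10% of all genes were called, 4.94% lower and 5.11% higher. Neuron markers moved here too, with 4 of 10 lower, 1 higher (Gad2, 0.38), a median of -0.18 and summed levels of 9484 to 9858 CPM in CL KO and 7890 to 8652 CPM in PI KO. Their part in the fall of Cdr1os was not tested.

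Oip5os1 lay between 10.05 and 10.11 in CL KO (median 10.07; 10.08 ± 0.02, or 1081 CPM, rank 63) and between 9.91 and 10.02 in PI KO (median 9.99; 9.97 ± 0.04, or 1006 CPM, rank 59). The difference was -0.10 (SE 0.05, adjusted p = 0.264), with a 95% interval from -0.22 to 0.01. Its drawn-in values did not overlap, by a gap of 0.03, and were lower in PI in 6 of 6 animals. With limma on the deposited values it passed, at an adjusted p of 0.00419, or 0.00235 with the animal as a block, in a test that takes the narrowed spread at face value. The ratio of Cdr1os to Oip5os1 was 0.356 in CL KO and 0.292 in PI KO, a log2 difference of -0.28 with no overlap.

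Whether the PI to CL difference of Cdr1os depended on genotype was tested as an interaction. The difference was -0.39 in KO and -0.05 in WT, and the interaction was -0.34 (SE 0.10, 95% interval -0.54 to -0.13, adjusted p = 0.992). The unadjusted p was 0.00261, for a gene chosen with earlier results known. The interaction did not pass over 14211 genes, of which 0 were called (0%), 646 had an unadjusted p under 0.05, and Cdr1os had the 24th smallest p. Limma on the deposited values called 1940 genes and gave Cdr1os an adjusted p of 0.000213, or 0.00402 with the animal as a block. For Oip5os1 the interaction was -0.07 (SE 0.08, adjusted p = 0.992, 95% interval -0.23 to 0.09).

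**Figure D5:**
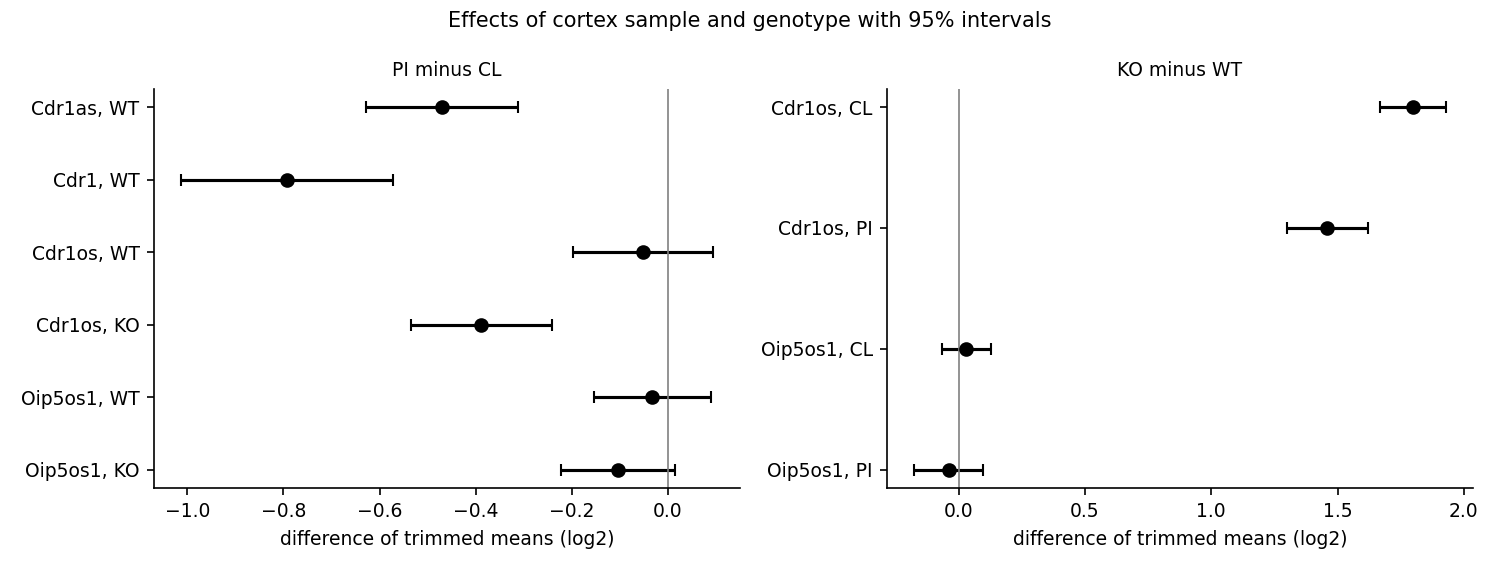
Differences of trimmed means on the log2 scale (points) with 95% intervals (bars) for PI minus CL in WT or KO and for KO minus WT in CL or PI. Cdr1as and Cdr1 in WT and Cdr1os in KO lie below 0 for PI minus CL, Cdr1os lies at 1.80 and 1.46 for KO minus WT, and all intervals of Oip5os1 include 0; Cdr1as and Cdr1 are left out of KO minus WT because only bounds can be given.

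Of 19 genes picked for the microRNA pathway around ciRS-7, all 19 were listed. The share called was near that of all genes in each comparison (in WT 5.2% of all genes higher and 5.4% lower, in KO 5.11% and 4.94%, and between genotypes 0.0279% in CL and 0.0208% in PI), so the counts say nothing particular of the list. In WT 1 rose in PI, Ago2, which encodes the Argonaute that can cut RNA (0.17, SE 0.05, adjusted p = 0.0497), and 0 fell, with a median of 0.00. The next by p was Eloc, a subunit of the ubiquitin ligase that works with Zswim8, at -0.19 (adjusted p = 0.0757). In KO 1 fell, Tnrc6b, an Argonaute partner in silencing (-0.19, SE 0.05, adjusted p = 0.0291), and 0 rose, with a median of -0.01. Drosha, the nuclear nuclease of microRNA maturation, stood at -0.20 (adjusted p = 0.0545). Between genotypes 0 of 19 were called, in CL and in PI. The smallest p belonged to Ago2 in CL (0.15, adjusted p = 0.824), then Tnrc6b (0.08, adjusted p = 0.890), and to Tnrc6a in PI (-0.19, adjusted p = 0.854), then Arih1 (0.11, adjusted p = 0.854). The same list had 0 called in the interaction, led by Eloc (0.19) and Ago2 (-0.18), both at an adjusted p of 0.992.

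Of 13 genes known to act on back-splicing or on the decay of circular RNA, 12 were listed. In WT, Mbnl1, a splicing factor, fell in PI (-0.27, SE 0.07, adjusted p = 0.0184), and Ythdf2, a reader of methylated RNA, stood at 0.22 (adjusted p = 0.0944). These were 0 higher and 1 lower of 12, near the 10.6% of all genes called, with a median of 0.05. In KO, Ythdf2 rose in PI (0.32, SE 0.09, adjusted p = 0.0389), Hnrnpl stood at -0.22 (adjusted p = 0.122), and 0 fell, where 10% of all genes were called, with a median of -0.03. Between genotypes 0 of 12 were called, where 0.0279% of all genes were in CL and 0.0208% in PI, with Mbnl1 at -0.10 in CL (adjusted p = 0.902) and Ilf2 at -0.14 in PI (adjusted p = 0.854). In the interaction 0 were called.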

How the data were processed

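The authors deposited log2 CPM values per gene in 4 tables of 2 groups, 12 columns each, per the file headers. The submitters' processing notes name the build mm10. The aligner, the annotation, the counting and its use of strand are not given in the sources used here. Each table was scaled separately, so tests stayed within a table. Each column name matched 1 sample title (0 columns left over). Deposited values were drawn in to the group quartiles (0.75 of the second value plus 0.25 of the next) in 100% of genes, from which 4 of 6 values per gene and group were recovered.

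Groups were compared by their trimmed means with the Winsorized sum of squares as error, moderated by limma 3.58.1 (R 4.3.3) with a trend. Tests were two-sided, with Benjamini-Hochberg adjustment over all genes of a table and calls at an adjusted p under 0.05. The test was checked on simulated data. Alternatives were limma on deposited values, with or without a replicate block, no trend, centring on the median gene, log2(CPM + 1) and genes of at least 0 log2 CPM. Depth was read from CPM steps, where 85.1% to 93.2% of low values came out whole within 0.1 read, and 3 reads were the limit of detection. The number in the titles names the same animal for CL and PI of a genotype. The trimmed-mean tests, the interaction included, treated CL and PI as independent groups and did not use this pairing. Deviations of same-numbered CL and PI libraries correlated across genes with a median r of 0.269 in WT and 0.0176 in KO.

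Models and transcripts were GENCODE M21 on GRCm38, which 14597 symbols matched and 172 did not. MicroRNAs were from RefSeq. The transcripts, lists and tests were chosen with earlier results of these data known. Named genes were the 4 transcripts, the 5 most similar genes to each with a level of at least 3 log2 CPM, and from each list the 2 with the smallest p, of which some are not reported here. Other marker genes were named after their values were seen.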

Additional observations from a re-analysis of the deposited data

How the results depend on the processing

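Centring on the median gene and log2(CPM + 1), the alternatives that change a fold change itself, turned the direction of none of the 4 transcripts in any comparison. Counts of called genes moved with the test. Without a trend in the prior variance they were 1015 in place of 1537 for PI WT against CL WT and 739 in place of 1440 for PI KO against CL KO. Limma on the deposited values called 6459 and 6666 in these, 2388 for PI KO against PI WT, 2311 for CL KO against CL WT and 1940 for the interaction. With the replicate block it called 6614, 6759, 1800, 1868 and 1895, so the block itself moved these counts by less than the choice of test did. CL and PI libraries are paired by animal, which only the replicate block took into account. WT and KO share only a number, with median correlations of 0.0243 in CL and 0.0245 in PI and 0 libraries closest to their own number. Between PI and CL, 4 of 6 libraries were closest to their own number in WT and 2 of 6 in KO. The median correlation in KO was 0.0176, so the pairing there rests on the titles. Oip5os1 in KO (-0.10) passed under limma and its replicate block (adjusted p = 0.00419 and 0.00235), as did Cdr1os in the interaction (-0.34, 0.000213 and 0.00402). Cdr1as between genotypes in PI did not pass without a trend (adjusted p = 0.189). That p-value belongs to a log2 difference of -17.71, which counts the lowest value of the table as a level, and not to the bound of -12.23. With log2(CPM + 1) the adjusted p was 6.98e-17. The cause was not tested. Against limma without it, the replicate block changed no call among the 4 transcripts. For the transcripts, the remaining 89 results over all alternatives stayed on their side of the threshold, and 18 counts of called genes stayed within 1.5 times the main count. Cdr1 has no value in the comparisons of genotype over genes of at least 0 log2 CPM, which leaves it out.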

Other observations

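Among other long noncoding RNAs, 12 of 13 were listed. Of all genes 10.6% were called in WT, 10% in KO, and between genotypes 0.0279% in CL and 0.0208% in PI. In WT, Neat1, the scaffold of paraspeckles, rose in PI (1.16, SE 0.34, adjusted p = 0.0462), and Pantr1 (-0.58, adjusted p = 0.0019) and the imprinted Peg13 (-0.22, adjusted p = 0.0359) fell, with a median of -0.05. In KO, Neat1 rose (0.64, adjusted p = 0.0037) and 6 fell, with a median of -0.26. They were Miat (-0.42, adjusted p = 0.00302), Norad, Pantr1, Peg13, Rian and Meg3, from -0.43 to -0.25 where Peg13 is at -0.28 and Norad, a binder of Pumilio proteins, at -0.32. Between genotypes 0 of 12 were called, with Norad at -0.23 (adjusted p = 0.768) and Malat1 at -0.24 (adjusted p = 0.854) in PI, and Mirg (0.08, adjusted p = 0.948) and Meg3 (0.09, adjusted p = 0.978) in CL. In the interaction 0 were called, with Norad at -0.24 and Malat1 at -0.26 (adjusted p = 0.992 for each).

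Among listed genes within 2 Mb of Cdr1os, Fgf13, which encodes a partner of neuronal sodium channels, fell in PI in WT (-0.57, SE 0.06, adjusted p = 7.5e-05) and in KO (-0.60, SE 0.07, adjusted p = 0.00025). Between genotypes 0 of these neighbours were called, and Fgf13 stood at 0.05 in CL (adjusted p = 0.957). Mcf2 stood at -0.18 in PI (adjusted p = 0.877).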
